A study of Mus musculus with 24 samples.

Results

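The comparison described here set 3 arrays of fibroblasts transduced with a MyoD lentivirus against 3 arrays of untransduced fibroblasts, 6 of the 24 mouse arrays of the study. It was described across 18193 genes, each read by 1 probe set, the one with the highest mean over all arrays. The cells were fibroblasts from mouse embryos (MEFs) of Myod-/-/Myf5-/- mice, kept in DMEM with 10% FBS, so the controls lack both factors too. Infection was in medium with 8 µg/ml polybrene, followed by fresh medium after 24 hours. At 48 hours the MyoD cells were moved to differentiation medium, which held 1% horse serum that had been heat-inactivated, 10 µg/ml insulin and 10 µg/ml transferrin, and they were harvested 36 to 40 hours later. The labels do not say that the controls received virus, polybrene or this medium, so the effects of MyoD, of infection and of the medium cannot be told apart. The rest of the study used P19 cells, an embryonal carcinoma line, and MEFs labelled NeuroD2, each with untransduced controls, in groups of 3.

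Titles and source names gave the groups, because the cell type label of the MyoD arrays speaks of neuronal differentiation, and the markers below go against it. The labels do not say whether the 3 arrays of a group were grown apart, and p-values therefore reflect spread among these samples that may be technical. The sources used here name neither the embryos' age or sex nor the promoter of the virus. The arrays measured bulk RNA, in which fewer cells of a type and less RNA per cell cannot be told apart.

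MyoD is a basic helix-loop-helix (bHLH) transcription factor of skeletal muscle that pairs with an E protein and binds E-boxes, short DNA motifs of the form CANNTG. It can turn fibroblasts toward muscle: it switches on Myog and Mef2 factors, the cells leave the cell cycle when serum is withdrawn, express the proteins of the sarcomere, and fuse into multinucleated myotubes. The sarcomere is built of thick filaments of myosin and thin filaments of actin, tropomyosin and troponin, anchored at the Z-disc, and it contracts when the ryanodine receptor releases calcium from the sarcoplasmic reticulum.

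Values are signals on the log2 scale, where a difference of 1 is a 2-fold difference. A gene is said to have risen, fallen or been called where limma's moderated test gave a Benjamini-Hochberg adjusted p under 0.05 over the 18193 genes, and every adjusted p below is of that kind. The 6 arrays had medians of 5.78 to 5.80 over all probe sets, and the median SD of a gene within a group was 0.0736 for the controls and 0.0739 for MyoD. All 24 arrays share 1 estimate of the spread. A P19 control array, replicate 2 of batch 1, stood apart from its group (mean correlation 0.917) and widened it. The counts of rises and falls over all genes in MEFs are therefore also given without it. Whether a single gene passed could depend on it too. Of 158 named genes that were not called, 45 were called in the same direction without that array. A gene that did not pass is therefore not shown to be unchanged.

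More genes fell than rose, but the largest changes were rises. Of the genes, 1963 (10.8%) rose and 2638 (14.5%) fell, together 25.3%, and without the array that stood apart 3302 (18.1%) rose and 4087 (22.5%) fell. At least 2-fold changes numbered 823 rises (4.52%) and 1081 falls (5.94%), and 827 and 1093 without that array. Rises of at least 16-fold were seen for 109 genes and falls for 14, rises of at least 64-fold for 32 genes and falls for 0. Of the 109 genes with a 16-fold rise, 99 had a control mean below 7.03, the median level of all genes. For 57.1% of all genes the 3 MyoD arrays lay wholly above or wholly below the 3 controls (27.1% above, 30.1% below).

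The markers given for skeletal muscle set the groups apart on every array. Myog read 5.04, 5.25 and 5.42 on the control arrays and 13.91, 14.10 and 14.08 on the MyoD arrays. Myog, which encodes myogenin, the factor that drives myoblasts into differentiation, rose by 8.79 ± 0.12 (SE, n = 3 per group, adjusted p = 1.06e-21), a 444-fold rise. Tnnc2 read 4.90, 4.78 and 4.90 on the control arrays and 13.85, 13.98 and 13.90 on the MyoD arrays. This gene of fast skeletal troponin C, the calcium sensor of the thin filament, rose by 9.05 ± 0.18, the largest rise of the comparison (adjusted p = 2.92e-19). Mymk read 4.48, 4.89 and 4.68 on the control arrays and 12.97, 13.09 and 13.03 on the MyoD arrays. Mymk encodes myomaker, the membrane protein that myoblasts need to fuse, and rose by 8.35 (adjusted p = 4.66e-19). Myh3 read 4.07, 4.33 and 4.45 on the control arrays and 13.06, 13.16 and 13.04 on the MyoD arrays. Myh3, the embryonic myosin heavy chain, rose by 8.80 (adjusted p = 6.67e-20). For none of these genes did the groups come within 7 log2 units of each other.

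Most markers in a short fibroblast list fell. A wider list of 26 fibroblast surface and identity genes, given further on, was more mixed: 2 rose, 13 fell and 11 did not pass. Of 10 markers (Pdgfra, Pdgfrb, Thy1, Col1a1, Col1a2, Dcn, Lum, Prrx1, Twist2 and Fbln1), 9 fell, and their mean level per array was 12.08 to 12.22 on the control arrays and 10.00 to 10.13 on the MyoD arrays. Col1a2 was not called on its most intense probe set, at -0.45 (adjusted p = 0.482), though its other probe sets were called lower, at -0.96 and -1.60. The most intense one read 14.35, 14.34 and 14.30 on the control arrays and 13.96, 13.82 and 13.85 on the MyoD arrays. Each MyoD array thus lay below every control, and the test used a spread shared with the other groups. The lack of a call therefore does not show that Col1a2 was unchanged. The means on the most intense probe set were 14.33 and 13.88. The arrays do not show whether that signal came from all cells or from some.

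**Figure D1:**
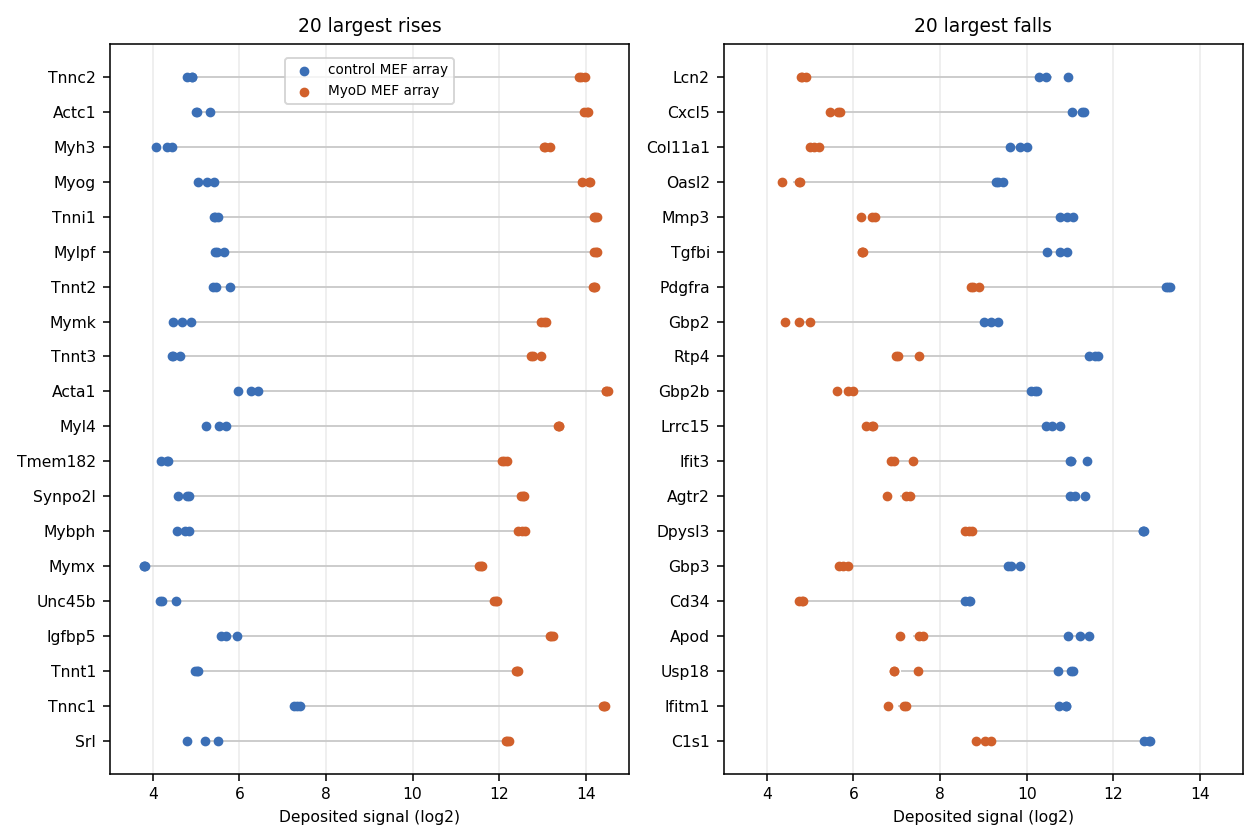
Signal (log2) of the 20 genes with the largest rises (left) and the 20 with the largest falls (right) among called genes, 1 point per array, control in blue and MyoD in orange, with a grey line between the group means. In every row the 3 points of a colour lie close together compared with the gap between colours; the rises start mostly between 4 and 7, and the falls mostly end between 4 and 9.

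The factor delivered by the virus was read first among the regulators. Myod1 read 7.21, 7.18 and 7.14 on the control arrays and 12.86, 12.67 and 12.67 on the MyoD arrays, a rise of 5.55 ± 0.13 (adjusted p = 1.86e-18). A second, dim Myod1 probe set differed by 0.06 (adjusted p = 0.867). Myf5 read 9.93, 10.15 and 10.12 on the control arrays and 9.23, 9.62 and 9.61 on the MyoD arrays, a fall of 0.58 (adjusted p = 0.0345) that did not pass when control replicate 2, control replicate 3 or MyoD replicate 1 was left out (adjusted p = 0.11, 0.0973 and 0.175), and against the batch 2 controls it differed by 0.048. Where these probe sets lie relative to the disrupted parts of Myod1 and Myf5 is unknown here, so the control readings check nothing about the genotype.

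Mef2 factors, which bind muscle promoters together with myogenic bHLH proteins, rose beside Myog. Mef2c read 7.57, 7.35 and 7.04 on the control arrays and 11.56, 11.65 and 11.59 on the MyoD arrays, a rise of 4.28, and its 4 other probe sets rose by 4.14 to 4.64. Mef2a and Mef2d rose by 3.04 and 1.55, and Mef2b differed by -0.13 (adjusted p = 0.888). Myf6, which encodes MRF4, a myogenic factor of later fibres, differed by 0.14 (adjusted p = 0.532). Of the E proteins that pair with MyoD, Tcf3 fell by 0.53, while Tcf12 and Tcf4 differed by 0.46 and -0.05 (adjusted p = 0.0911 and 0.952). Of the 11 measured genes of this group 5 rose, 2 fell and 4 did not pass (median difference 0.46), where the median over all genes was 0.00.

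Inhibitors of bHLH factors moved in both directions. Id proteins bind E proteins without binding DNA: Id2, Id1 and Id3 rose by 2.66, 1.88 and 0.68 and Id4 fell by 1.42, the call of Id3 being lost against the batch 2 controls. Twist1 and Twist2, bHLH factors of mesenchyme that oppose MyoD, fell by 1.41 and 2.16. Hes6, a Hes family member found in differentiating cells, rose by 3.20, and Hey1 by 0.81. Hes1, the classical Notch-induced repressor, differed by 0.11 (adjusted p = 0.795) and was called lower, at -0.73, against the batch 2 controls, and Msc, also called MyoR, by 0.02 (adjusted p = 0.973). Of 16 measured, 5 rose, 4 fell and 7 did not pass (median difference 0.09).

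Among other transcriptional regulators of muscle, Smyd1, a muscle methyltransferase, rose by 4.78, Eya4, a transcriptional co-activator, by 3.99, and Vgll2, a partner of TEAD factors, by 3.83. Srf, the serum response factor that drives actin genes, rose by 1.17. Pax3 and Eya1, genes of muscle progenitors, fell by 1.95 and 1.29 (Eya1 was not called against the batch 2 controls), and Pax7 of satellite cells differed by 0.29 (adjusted p = 0.0637). Of 30 measured, 13 rose, 3 fell and 14 did not pass (median difference 0.30). Of 29 chromatin regulators 5 rose (17.2%), 6 fell (20.7%) and 18 did not pass (median difference -0.02), where 10.8% of all genes rose and 14.5% fell. They included opposite changes within 1 subunit family of the SWI/SNF remodelling complex: Smarcd3, the BAF60C subunit of heart and muscle, read 8.74, 8.78 and 8.68 on the control arrays and 11.15, 10.98 and 10.94 on the MyoD arrays, a rise of 2.29, and Smarcd2 fell by 1.28. The ATPase Smarca2 fell by 1.85, and the other ATPase, Smarca4, differed by 0.14 (adjusted p = 0.562). Among the deacetylases Hdac11 and Hdac9 rose by 3.42 and 1.91, while Hdac7 and Hdac4 fell by 1.01 and 0.55.

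Genes of the thin filament made up 8 of the 20 largest rises. Of 28 measured members of the list of thin filament and filament end genes, 20 rose, 2 fell and 6 did not pass (median difference 3.92). Cardiac alpha-actin (Actc1), the main sarcomeric actin of early muscle, read 5.02, 5.01 and 5.32 on the control arrays and 13.96, 14.04 and 14.03 on the MyoD arrays, and rose by 8.90 (adjusted p = 8.14e-11). Skeletal alpha-actin (Acta1) read 5.96, 6.43 and 6.27 on the control arrays and 14.47, 14.46 and 14.52 on the MyoD arrays, and rose by 8.26 (adjusted p = 8.09e-14). The cytoplasmic actins Actb and Actg1 differed by -0.16 and 0.05 (adjusted p = 0.255 and 0.831). Both alpha-actins lay above all controls by more than 7 log2 units on every MyoD array, and the cytoplasmic actins within 0.5 of them.

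Troponin, the complex of calcium-binding (C), inhibitory (I) and tropomyosin-binding (T) subunits, was represented by slow, fast and cardiac genes at once. The slow or cardiac troponin C gene Tnnc1 rose by 7.09 from a control mean of 7.32, beside the rise of 9.05 of the fast gene Tnnc2. Of the troponin I genes, the slow Tnni1 rose by 8.76 and the fast Tnni2 by 4.57, and the cardiac Tnni3 differed by -0.30 (adjusted p = 0.641). The troponin T genes of slow (Tnnt1), cardiac (Tnnt2) and fast (Tnnt3) muscle rose by 7.39, 8.65 and 8.32. Tnnt2 read 5.39, 5.46 and 5.78 on the control arrays and 14.18, 14.17 and 14.22 on the MyoD arrays. Leiomodin 3 (Lmod3) and nebulin (Neb), which set filament length, rose by 6.81 and 5.54, and the Kelch proteins Klhl41 and Klhl40, which stabilise thin filament proteins, by 6.13 and 4.16.

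Most thick filament genes rose, and several heavy and light chains did not pass. Of 29 measured, 19 rose, 0 fell and 10 did not pass (median difference 3.81). Besides Myh3, the slow heavy chain Myh7 read 4.67, 5.74 and 5.17 on the control arrays and 10.23, 10.10 and 10.16 on the MyoD arrays, a rise of 4.97 (adjusted p = 1.23e-08). The light chains Mylpf (fast, regulatory), Myl4 (embryonic) and Myl1 (fast, alkali) rose by 8.71, 7.89 and 6.94. The M-line myomesins Myom2, Myom1 and Myom3 rose by 6.67, 4.55 and 4.05, titin (Ttn) by 6.62, and Mybph, a myosin-binding protein, by 7.80. Unc45b, the chaperone that folds myosin heads, read 4.54, 4.21 and 4.16 on the control arrays and 11.88, 11.93 and 11.94 on the MyoD arrays, a rise of 7.62. The perinatal chain Myh8 and the fast adult chains Myh2 and Myh4 differed by 0.19, 0.10 and -0.00 (adjusted p = 0.507, 0.717 and 0.999), with means of at most 4.21 on the MyoD arrays. The light chains Myl2, Myl3 and Myl7 differed by -0.02, 0.17 and 0.21, the cardiac binding protein Mybpc3 by 0.085 and the light chain kinase Mylk2 by -0.099, and none of these 5 passed. Non-muscle myosins Myh9 and Myh10 fell by 0.62 and 0.90. The call of Myh9 was lost against the batch 2 controls. It was also lost without the less specific probe sets, where the most intense of those kept was at -0.46. Other Myh9 probe sets among those kept were called lower, at -0.83, -0.85 and -0.37.

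For several sarcomeric genes the probe sets disagreed, and the choice of 1 probe set decided the direction. They are described here because of their values. Myh1, the fast adult chain of type 2X, differed by -0.00 on its main probe set, yet another read 3.73, 3.74 and 3.60 on the control arrays and 9.44, 9.53 and 9.55 on the MyoD arrays, a rise of 5.82 (adjusted p = 9.31e-19), and the remaining one rose by 5.75. Whether these cross-hybridise with other myosin heavy chains, which share much of their sequence, was not tested. For Tpm3, 3 probe sets fell, by 0.59, 0.71 and 0.58, and the other two rose, by 4.02 and 2.57 (adjusted p = 7.36e-10 and 3.94e-12). The more changed of those read 5.42, 5.77 and 5.54 on the control arrays and 9.60, 9.54 and 9.63 on the MyoD arrays. Tpm1 rose by 1.13, 1.27 and 2.83 on 3 probe sets and differed by -0.69 (adjusted p = 0.0572) on another. Pdlim5, a Z-disc adaptor also called ENH, fell by 1.57 on its main probe set and on 4 others, and rose on 2, by 3.95 (adjusted p = 1.15e-14) and 1.29. Tropomyosin and Pdlim5 genes are known to make muscle and non-muscle transcripts, but which transcript each probe set reads is not given in the files used here.

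Of the 315 called genes among those chosen for naming, 177 had 358 other probe sets: 251 were called the same way, 101 were not called and 6, of Tpm3, Pdlim5 and Asph, were called the other way. These p-values were adjusted over 34945 probe sets. Of 105 genes chosen for naming that were not called and have other probe sets, 6 rose or fell at least 2-fold on another probe set: Acta2, Cald1, Camk2d, Col1a2, Myh1 and Qk.

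**Figure D2:**
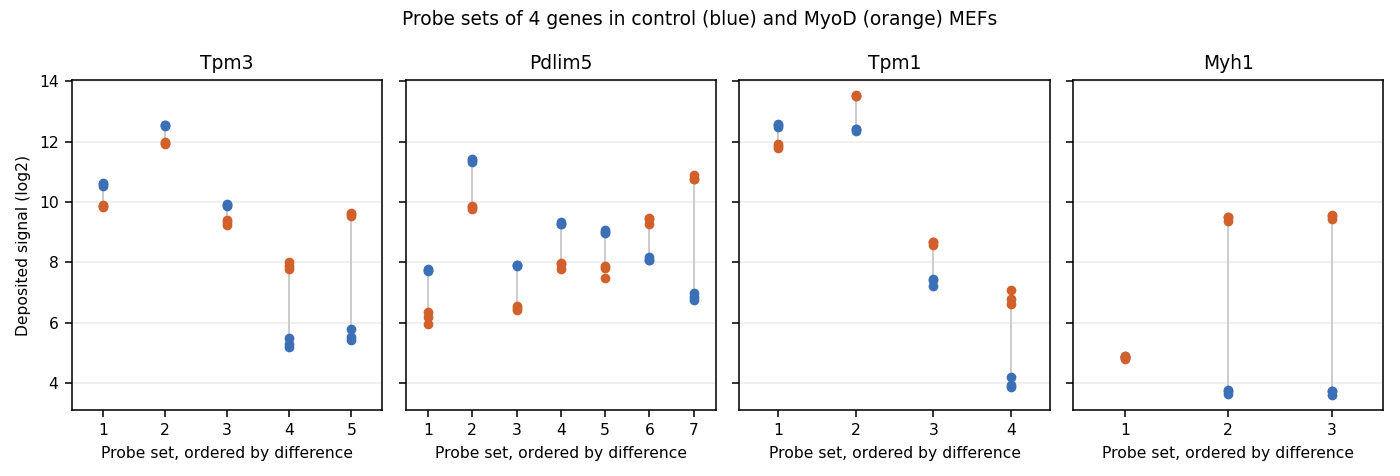
Signal (log2) on each probe set of Tpm3, Pdlim5, Tpm1 and Myh1, 1 point per array, control in blue and MyoD in orange, ordered by the difference between groups. Within Tpm3 and Pdlim5 some probe sets lie lower with MyoD and others 1.29 to 4.02 log2 units higher; 1 probe set of Myh1 shows no gap and the others gaps of 5.75 and 5.82.

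Among related genes with a muscle and a general form, the general form fell, did not pass or rose by less on its main probe set. The fast calcium pump Atp2a1 read 5.55, 5.80 and 5.89 on the control arrays and 11.53, 11.43 and 11.47 on the MyoD arrays, a rise of 5.73, beside 0.42 for the more widely used Atp2a2. Of the 5 other Atp2a2 probe sets, 3 rose, by 2.03, 2.03 and 1.18, from lower control signal. The Z-disc actinins Actn3 and Actn2 rose by 5.96 and 2.77, and the non-muscle Actn1 and Actn4 differed by -0.36 and -0.05 (adjusted p = 0.252 and 0.906). The muscle creatine kinase Ckm rose by 5.70 and the brain form Ckb by 3.03. Muscle glycogen phosphorylase Pygm rose by 3.56, the brain form Pygb fell by 2.19, and the liver form Pygl differed by -0.17 (adjusted p = 0.701). Muscle phosphoglycerate mutase Pgam2 rose by 4.71 and Pgam1 fell by 0.46. Of the cytochrome oxidase subunits, the muscle forms Cox8b, Cox6a2 and Cox7a1 rose by 5.91, 3.38 and 1.52, while the general forms Cox8a and Cox7a2 rose by 0.71 and 0.70 and Cox6a1 differed by -0.07 (adjusted p = 0.796). The levels of different genes in each pair are not comparable, because each probe set has its own response.

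**Figure D3:**
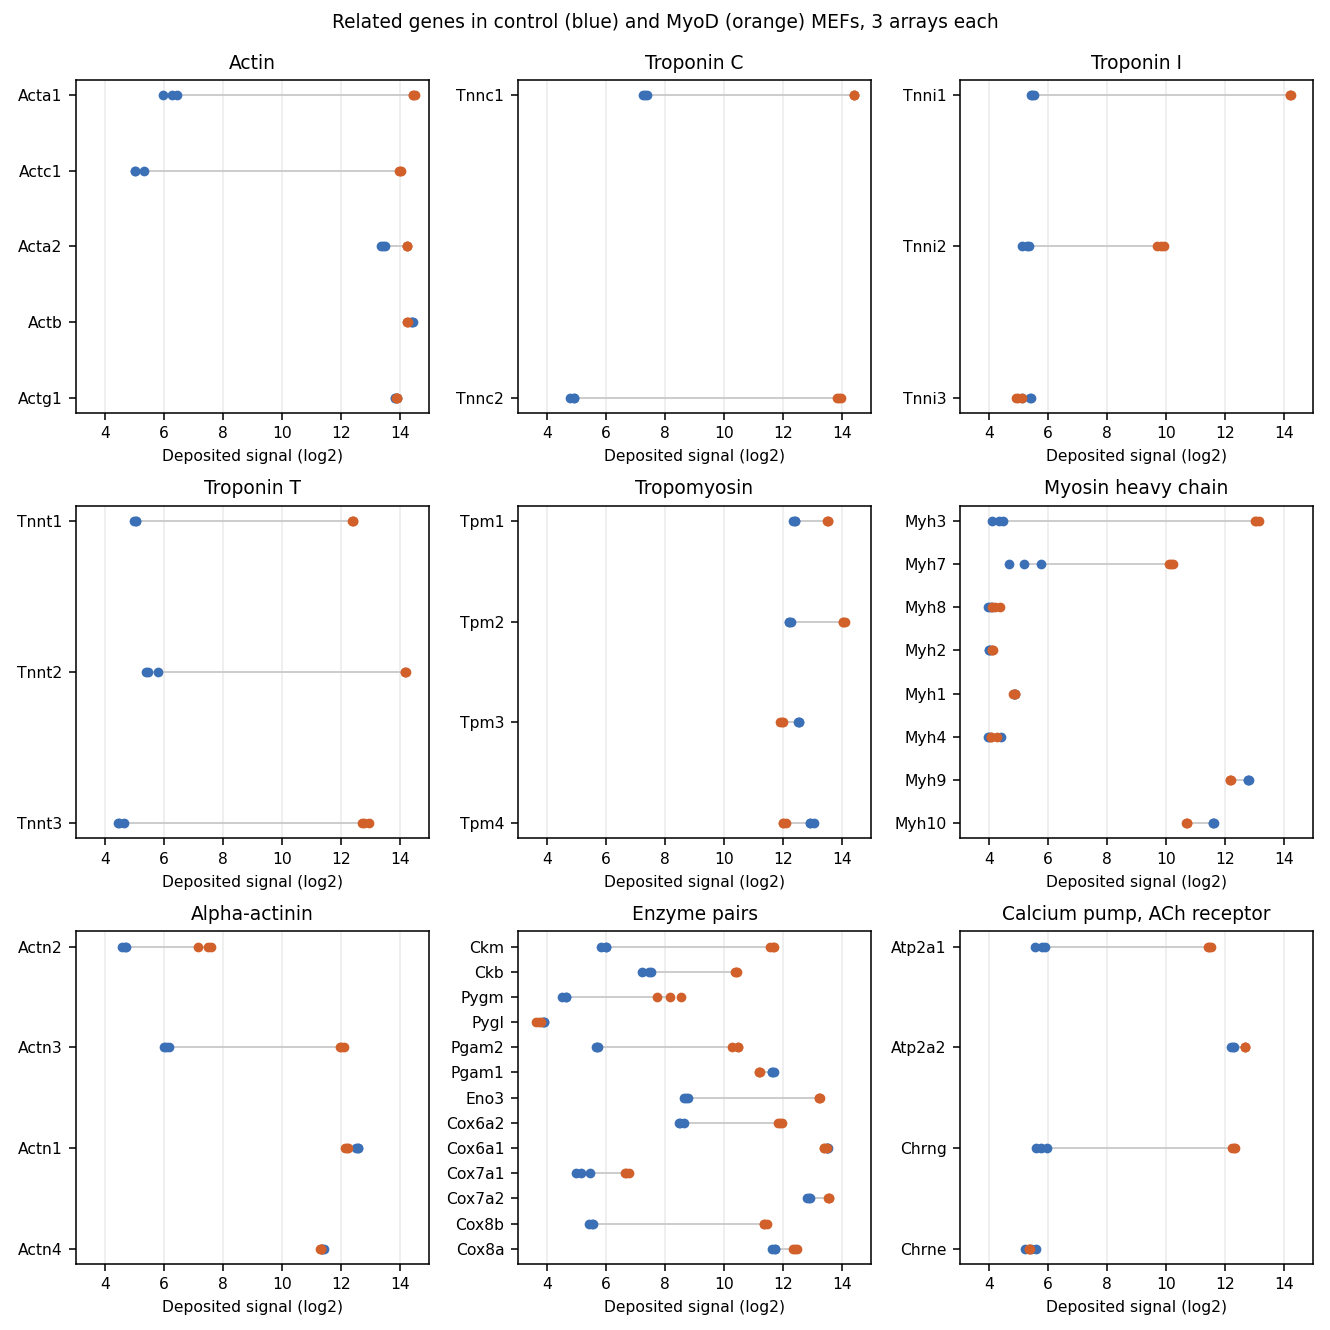
Signal (log2) of related genes on the 3 control (blue) and 3 MyoD (orange) arrays, main probe set of each, with a grey line between group means. Sarcomeric actins, troponins, Myh3 and Myh7 move from the left to the right of the axis, whereas Actb, Actg1, Tnni3, Myh8, Myh2, Myh4 and Chrne stay within 0.30 of the controls; Myh1, Tpm3 and Tpm1 gave other values on other probe sets.

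Because MyoD binds E-boxes, the 250 bases before the RefSeq starts of the genes with the largest rises were read for CAGCTG. This E-box is its own reverse complement and is 1 of the forms of CANNTG. Of the 20 genes with the largest rises, 16 had 19 promoter windows in the RefSeq table of GRCm38.p6, and 8 (42.1%) held CAGCTG. Over all RefSeq promoters it was 4271 of 32851 (13%). It was 34 of 108 (31.5%) for rises of at least 16-fold, 170 of 892 (19.1%) for rises of at least 2-fold and 154 of 1083 (14.2%) for falls of at least 2-fold. CANNTG in any form was in 66.2% of all promoters and 89.5% of those of the 20 genes. The Mef2-like motif of CTA and TAG with 4 bases between them, read on both strands, was in 3.2% of all promoters, 1 of 19 (5.26%) for the 20 largest rises, 9 of 108 (8.33%) for rises of at least 16-fold, 31 of 892 (3.48%) for rises of at least 2-fold and 25 of 1083 (2.31%) for falls of at least 2-fold. Genes with several starts give several windows, which can overlap. A match is a run of letters, not a site shown to be bound.

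Shown here are 5 such windows, 5′ to 3′ on the gene's strand and ending at the base before the start, as examples with CAGCTG in capitals. Tnnt2 (chr1:135836084-135836333, plus strand, the first of 2 listed starts) holds it 223 and 157 bases before the start, and Mylpf (chr7:127211358-127211607, plus strand) 51 bases before it. Mybph (chr1:134193198-134193447, plus strand) holds it 79 bases and Tmem182 (chr1:40805351-40805600, plus strand), a muscle membrane protein gene that rose by 7.83, 41 bases before the start. Chrng (chr1:87205561-87205810, plus strand), of the fetal acetylcholine receptor, holds it 155 and 132 bases before the start.
Tnnt2: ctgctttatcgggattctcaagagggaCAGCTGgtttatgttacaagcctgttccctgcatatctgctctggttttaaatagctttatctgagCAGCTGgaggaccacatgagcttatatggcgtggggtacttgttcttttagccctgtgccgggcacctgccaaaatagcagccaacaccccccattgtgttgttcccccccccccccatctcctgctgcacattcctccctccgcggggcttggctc
Mylpf: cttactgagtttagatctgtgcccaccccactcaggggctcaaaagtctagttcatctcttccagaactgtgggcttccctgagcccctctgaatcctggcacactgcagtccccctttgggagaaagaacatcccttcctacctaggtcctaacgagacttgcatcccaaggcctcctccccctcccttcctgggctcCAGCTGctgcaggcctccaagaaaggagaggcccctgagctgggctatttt
Mybph: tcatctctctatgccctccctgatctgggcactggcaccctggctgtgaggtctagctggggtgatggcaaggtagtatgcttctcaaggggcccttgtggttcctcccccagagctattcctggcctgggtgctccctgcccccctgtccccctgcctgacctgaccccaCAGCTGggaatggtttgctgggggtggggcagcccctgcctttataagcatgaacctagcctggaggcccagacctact
Tmem182: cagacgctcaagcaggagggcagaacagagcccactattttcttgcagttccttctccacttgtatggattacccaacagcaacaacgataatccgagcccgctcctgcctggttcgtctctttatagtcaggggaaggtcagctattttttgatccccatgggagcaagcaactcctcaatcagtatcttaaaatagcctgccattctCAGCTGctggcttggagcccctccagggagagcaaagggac
Chrng: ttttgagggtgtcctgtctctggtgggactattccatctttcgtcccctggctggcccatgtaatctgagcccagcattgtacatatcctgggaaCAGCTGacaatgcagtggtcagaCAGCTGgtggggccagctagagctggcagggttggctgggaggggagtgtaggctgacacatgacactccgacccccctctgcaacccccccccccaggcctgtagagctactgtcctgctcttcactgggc

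At the Z-disc, Synpo2l and Ldb3, adaptors of actinin, rose by 7.81 and 6.24, and Myoz2, which tethers calcineurin there, by 5.63. Desmin (Des), the intermediate filament of muscle, read 7.09, 7.05 and 7.14 on the control arrays and 11.99, 11.93 and 12.08 on the MyoD arrays, a rise of 4.90. The call of Synpo2l was lost when less specific probe sets were left out, where the most intense of those kept differed by 0.06. Another Synpo2l probe set among those kept was called, with a rise of 5.83. Of 28 measured Z-disc and M-line genes 18 rose, 2 fell and 8 did not pass (median difference 1.73). Myozenin 3 (Myoz3), myotilin (Myot) and telethonin (Tcap), which belong to the same structure, differed by -0.17, -0.01 and 0.23 (adjusted p = 0.808, 0.972 and 0.26). Of 25 genes of the dystrophin complex and receptors of the basal lamina, 10 rose, 5 fell and 10 did not pass (median difference 0.32). Alpha-sarcoglycan (Sgca) and the muscle integrin chain Itga7 rose by 4.88 and 4.60. Dystrophin itself (Dmd) differed by -0.21 and its relative utrophin (Utrn) by 0.32 (adjusted p = 0.663 and 0.112). Syntrophins moved apart, Sntb1 rising by 3.70 and Sntb2 falling by 1.53. So did the laminin alpha chains, with Lama2 of muscle rising by 2.48 and Lama4 falling by 2.30.

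The machinery that couples the action potential to calcium release rose widely. Of 35 measured, 24 rose, 2 fell and 9 did not pass (median difference 1.39). Ryr1, the skeletal ryanodine receptor, read 4.25, 4.23 and 4.60 on the control arrays and 10.68, 10.62 and 10.47 on the MyoD arrays, and rose by 6.23 (adjusted p = 8.44e-18). Its voltage sensor Cacna1s, the adaptor Stac3 and the auxiliary subunit Cacng1 rose by 5.29, 5.77 and 5.03. Calcium stores were represented by Casq2, the cardiac and slow calsequestrin, which rose by 6.26, and Casq1, the fast form, which rose by 0.60. Junctophilins Jph1 and Jph2, which hold the membranes of the junction together, rose by 4.15 and 2.97. The muscle chloride channel Clcn1 and the pump inhibitor Sln differed by -0.01 and -0.10 (adjusted p = 0.987 and 0.817), and another inhibitor, the micropeptide myoregulin (Mrln), rose by 3.88. Asph fell by 1.45 on its main probe set, 1 of the genes whose probe sets disagreed.

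At the neuromuscular junction, genes of the fetal form of the acetylcholine receptor rose. Chrng, the fetal gamma subunit, read 5.75, 5.96 and 5.60 on the control arrays and 12.36, 12.22 and 12.30 on the MyoD arrays, a rise of 6.53 (adjusted p = 1.51e-16). Chrna1, Chrnb1 and Chrnd, of the shared subunits, rose by 4.73, 5.15 and 3.85, and Chrne, the subunit that replaces gamma in adult muscle, differed by -0.03 (adjusted p = 0.947). Rapsn, which clusters the receptor, rose by 4.73. Lrp4 and Dok7, of the agrin signalling pathway, rose by 4.40 and 2.65, while the kinase Musk between them differed by 0.26 (adjusted p = 0.319). The nerve-derived ligands agrin (Agrn) and Nrg1 fell by 0.77 and 1.25, the call of Agrn being lost against the batch 2 controls and without control replicate 1, control replicate 2 or MyoD replicate 3. Erbb3, a neuregulin receptor, rose by 5.89. Of 18 measured, 10 rose, 2 fell and 6 did not pass (median difference 0.52).

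Both fusion proteins of myoblasts rose. Mymx, which encodes myomixer, read 3.79, 3.83 and 3.79 on the control arrays and 11.52, 11.58 and 11.60 on the MyoD arrays, a rise of 7.76 (adjusted p = 3.62e-20), beside the rise of Mymk by 8.35. Cdh15, the M-cadherin of myoblasts, rose by 5.99. The remaining genes linked to fusion were mixed: Jam3, Jam2 and Ncam1 rose by 2.15, 1.91 and 1.33, Vcam1, Kirrel and Dock1 fell by 2.03, 1.29 and 0.96, and Adam12 differed by 0.43 (adjusted p = 0.0551). The call of Dock1 was lost against the batch 2 controls. Of 26 measured, 9 rose, 5 fell and 12 did not pass (median difference 0.15).

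Most fuel genes of muscle and most of mitochondrial respiration rose, the latter mainly by less than 2-fold. Ckm, which buffers ATP with phosphocreatine, read 5.98, 5.83 and 5.99 on the control arrays and 11.68, 11.68 and 11.56 on the MyoD arrays, and myoglobin (Mb), which stores oxygen, rose by 4.91. The muscle enolase Eno3 and adenylosuccinate synthase Adssl1 rose by 4.54 and 4.35. Of 34 measured muscle energy enzymes 20 rose, 4 fell and 10 did not pass (median difference 0.71). Of 32 nuclear genes of oxidative phosphorylation and the citric acid cycle 26 rose, 0 fell and 6 did not pass (median difference 0.59), and all 32 rose without the P19 array that stood apart. Cyc1 (cytochrome c1) and Ndufs3 of complex I rose by 1.20 and 1.23, and no other member reached 2-fold. Of 23 genes of glycolysis and the hypoxia response 5 rose, 3 fell and 15 did not pass (median difference -0.01): Hk2 and Aldoa rose by 1.67 and 1.15, Egln3, a prolyl hydroxylase, rose by 3.82, and the glucose transporter Slc2a1 fell by 0.49, a call lost when any of the 6 arrays was left out. Without the P19 array that stood apart, 9 rose and 8 fell. With all arrays the shares of this list were 21.7% and 13%, where 10.8% of all genes rose and 14.5% fell.

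Among RNA-binding proteins Rbm24 read 5.34, 5.34 and 5.08 on the control arrays and 11.37, 11.50 and 11.45 on the MyoD arrays, a rise of 6.19; it is a regulator of muscle splicing. Srpk3, a muscle kinase of splicing factors, and Rbm20, the titin splicing factor, rose by 3.62 and 1.90, and Rbfox1, Rbfox2 and Celf2 by 1.33, 1.32 and 1.39. Ptbp1, which represses muscle and neuron exons, fell by 0.74, though not on the mean of its probe sets, and Mbnl1 differed by 0.04 (adjusted p = 0.957). Of 18 measured, 8 rose, 2 fell and 8 did not pass (median difference 0.26). Of 25 chaperone and protein turnover genes 13 rose, 1 fell and 11 did not pass (median difference 1.01). Small heat-shock proteins Hspb2, Hspb1 and Hspb7 rose by 4.71, 2.46 and 2.45, and the muscle ubiquitin ligases Trim63 and Fbxo32, known from atrophy, by 3.81 and 1.94. Capn6, a calpain without protease activity that is known to hold back muscle differentiation, fell by 3.73, and a second probe set fell by 3.44.

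Secreted growth regulators were among the larger changes. Igfbp5, a binding protein of insulin-like growth factors, read 5.70, 5.94 and 5.57 on the control arrays and 13.24, 13.17 and 13.19 on the MyoD arrays, a rise of 7.46 (adjusted p = 1.44e-12). The growth factors Igf2 and Igf1 rose by 5.05 and 3.51, and their binding proteins Igfbp6 and Igfbp7 fell by 2.04 and 1.73. The imprinted gene Mest rose by 5.54. Fgf21, a metabolic hormone that muscle can release, rose by 4.81, Fndc5, the precursor of irisin, by 3.59, and Fst, the follistatin that binds myostatin, by 2.16. Dlk1, an imprinted inhibitor of differentiation, fell by 1.94, a call lost without the less specific probe sets. The receptors Igf1r, Igf2r and Insr differed by 0.48, 0.55 and -0.17 (adjusted p = 0.263, 0.0667 and 0.872). Each MyoD array nevertheless lay above every control for Igf1r and Igf2r, and below every control for Insr. Of 25 measured, 10 rose, 5 fell and 10 did not pass (median difference 0.11). The Igfbp5, Mest and Igf1 changes have counterparts in the MEFs labelled NeuroD2, given further on.

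Several inhibitors of the cell cycle rose, and the genes of division did not fall with them. Cdkn1c, which encodes the inhibitor p57, read 5.99, 5.70 and 5.62 on the control arrays and 10.37, 10.39 and 10.29 on the MyoD arrays, a rise of 4.58 (adjusted p = 9.29e-16). Cdkn1a (p21), Rb1 (the retinoblastoma protein) and Ccnd3 (cyclin D3, which differentiating muscle retains) rose by 1.84, 3.08 and 1.94, and Ccnd1 (cyclin D1), Cdkn2a and Cdkn2b fell by 0.85, 1.08 and 1.16. The Ccnd1 call was lost against the batch 2 controls. Of 26 measured, 10 rose, 5 fell and 11 did not pass (median difference 0.23). Yet of 28 S phase genes 7 rose, 0 fell and 21 did not pass (median difference 0.22), and of the 29 measured for mitosis and its approach (G2 and M) 10 rose, 0 fell and 19 did not pass (median difference 0.48). Without the P19 array that stood apart, 12 S phase genes rose and 1 fell, and for G2 and M phase 21 were higher and 0 lower. Rrm2, of ribonucleotide reductase, rose by 2.20. The proliferation marker Mki67 read 7.69, 7.78 and 7.56 on the control arrays and 8.59, 8.38 and 8.36 on the MyoD arrays, a rise of 0.77, but 6.01, 5.94 and 6.04 in the untransduced MEFs of batch 2. Control MEFs of batch 1 were themselves above those of batch 2 for these genes, with medians of 1.18 over the G2 and M phase list and 0.57 over the S phase list. Against the batch 2 controls, where 14.3% of all genes were called higher and 15.4% lower, 28 of 29 genes of G2 and M phase and 20 of 28 of S phase were higher in MyoD MEFs and 0 lower (medians 1.63 and 0.76).

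On the falling side, many matrix genes of fibroblasts were lower. Of 26 measured collagens and their enzymes 0 rose, 16 fell and 10 did not pass (median difference -0.81), and 2 rose and 17 fell without the P19 array that stood apart. Col11a1, of cartilage-type fibrils, read 10.01, 9.84 and 9.62 on the control arrays and 5.08, 5.19 and 5.00 on the MyoD arrays, and fell by 4.74 (adjusted p = 7.52e-13). Col1a1 and Col3a1, of the main fibrils, fell by 2.08 and 1.69, and the cross-linking enzyme Lox by 2.49. The basement membrane chains Col4a1 and Col4a2 differed by 0.80 and 0.40 (adjusted p = 0.0865 and 0.537), though for both each MyoD array lay above every control. Of 31 glycoproteins and proteoglycans 0 rose, 18 fell and 13 did not pass (median difference -1.26). Tgfbi, a matrix adhesion protein, read 10.76, 10.94 and 10.47 on the control arrays and 6.21, 6.23 and 6.19 on the MyoD arrays, and fell by 4.52. Fibulin 1 (Fbln1), Mfap4 of elastic fibres and the proteoglycan lumican (Lum) fell by 2.97, 2.82 and 2.35, while Bgn (biglycan) and Sparc differed by -0.51 and -0.54 (adjusted p = 0.179 and 0.13). Of 21 proteases and inhibitors 3 rose, 14 fell and 4 did not pass (median difference -1.10). Mmp3 (stromelysin), Mmp2 (gelatinase) and Mmp13 (collagenase) fell by 4.56, 2.86 and 2.69, whereas the aggrecanases Adamts4 and Adamts5 rose by 2.10 and 1.67.

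Many receptors and transcription factors that mark fibroblasts fell with the matrix. Pdgfra, the PDGF receptor of mesenchyme, read 13.30, 13.26 and 13.22 on the control arrays and 8.90, 8.77 and 8.70 on the MyoD arrays, and fell by 4.47 (adjusted p = 9.49e-16). The surface protein Cd34 read 8.69, 8.66 and 8.57 on the control arrays and 4.73, 4.84 and 4.82 on the MyoD arrays, and fell by 3.84. Pdgfrb and Thy1 fell by 2.00 and 1.69, and the factors Gli2, Osr2 and Prrx1 by 3.31, 2.61 and 1.03. Fap, the fibroblast activation protein, rose by 1.71, and Zeb1, a repressor of epithelial genes, by 1.80. Vimentin (Vim) differed by -0.33 (adjusted p = 0.626), though each MyoD array lay below every control. Of 26 measured, 2 rose, 13 fell and 11 did not pass (median difference -0.64). Other large falls were of Lrrc15, a membrane protein of stromal cells, Agtr2, the angiotensin receptor type 2, Dpysl3, a cytoskeletal regulator, and Apod, a lipocalin, by 4.20, 4.06, 4.03 and 3.82.

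Interferon response genes fell together: of 35 measured 0 rose, 30 fell and 5 did not pass (median difference -1.79), and 23 of them fell at least 2-fold. Oasl2, of the antiviral oligoadenylate synthetase family, read 9.44, 9.33 and 9.28 on the control arrays and 4.74, 4.36 and 4.75 on the MyoD arrays, and fell by 4.73 (adjusted p = 6.52e-17). The interferon-induced GTPase Gbp2 read 9.33, 9.01 and 9.18 on the control arrays and 4.41, 4.73 and 5.00 on the MyoD arrays, and fell by 4.46. Gbp3, Ifit3, Ifit1 and Usp18 fell by 3.91, 4.09, 3.68 and 3.82. The transducers of the pathway Stat2, Irf9 and Irf7 fell by 2.28, 2.28 and 2.09, and the RNA sensors Ifih1 and Ddx58 by 2.31 and 2.66. Antigen presentation genes H2-D1, H2-K1 and Tap1 fell by 1.84, 0.88 and 1.51, Tap1 without a call on the mean of its probe sets. Rsad2 and Mx1, also classical members, differed by -0.06 and -0.14 (adjusted p = 0.885 and 0.62), with control means of 6.13 and 4.52, below the median of all genes. The falls started from untransduced controls whose levels of Oasl2 exceeded those of the batch 2 controls by 0.56 (adjusted p = 0.0234); against batch 2 controls 29 of 35 were lower.

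Interferon-induced promoters are known for a repeat of GAAA, here searched as a GAAA pair with 2 bases between, or its reverse complement, TTTC likewise; neither motif above contains it. Of the 35 genes, 28 had 34 RefSeq windows, and 13 (38.2%) held it in the 250 bases before the start, against 2.98% of all promoters, 5.17% for falls of at least 2-fold and 2.02% for rises of at least 2-fold. The list was made of genes known for interferon, so the share describes that list. As examples, with matches in capitals, Ifit1 (chr19:34640639-34640888, plus strand) holds it 104 and 85 bases and Ifit3 (chr19:34583279-34583528, plus strand) 156 and 122 bases before the start, both as the TTTC form. Bst2 (chr8:71537473-71537722, minus strand), a membrane tether of viruses that fell by 2.62, holds overlapping matches that begin 130 and 124 bases before the start.
Ifit1: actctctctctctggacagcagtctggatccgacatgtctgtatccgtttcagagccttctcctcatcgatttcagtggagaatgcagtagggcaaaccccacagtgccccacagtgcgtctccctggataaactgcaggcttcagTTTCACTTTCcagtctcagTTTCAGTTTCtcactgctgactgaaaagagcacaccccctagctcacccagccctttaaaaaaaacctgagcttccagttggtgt
Ifit3: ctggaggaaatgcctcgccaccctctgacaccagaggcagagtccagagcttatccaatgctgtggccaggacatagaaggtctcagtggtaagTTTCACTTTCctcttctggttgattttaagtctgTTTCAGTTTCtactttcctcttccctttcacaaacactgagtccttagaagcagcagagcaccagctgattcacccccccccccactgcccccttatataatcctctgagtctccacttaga
Bst2: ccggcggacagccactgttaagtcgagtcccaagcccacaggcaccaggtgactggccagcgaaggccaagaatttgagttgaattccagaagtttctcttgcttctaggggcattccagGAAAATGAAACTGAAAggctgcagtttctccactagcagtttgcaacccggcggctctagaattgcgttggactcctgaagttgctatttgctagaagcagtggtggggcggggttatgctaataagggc

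Inflammatory secreted proteins held the largest falls of the comparison. Lcn2, an iron-binding lipocalin of the acute phase, read 10.44, 10.95 and 10.28 on the control arrays and 4.81, 4.89 and 4.79 on the MyoD arrays, and fell by 5.72 (adjusted p = 2.59e-16). The neutrophil chemokine Cxcl5 read 11.28, 11.32 and 11.05 on the control arrays and 5.45, 5.64 and 5.70 on the MyoD arrays, and fell by 5.62 (adjusted p = 1.86e-18). Ccl11, Ccl8 and Ccl7, which attract other leukocytes, fell by 3.70, 3.10 and 2.53, and Cxcl12 by 2.26. The scavenging receptor Ackr3 rose by 2.17, and the epithelial-type cytokine Tslp by 1.55. Of 28 chemokines and cytokines 3 rose, 16 fell and 9 did not pass (median difference -0.77). Of 21 acute-phase and complement genes 0 rose, 12 fell and 9 did not pass (median difference -0.62), with C1s1, Saa3 and Hp (haptoglobin) falling by 3.78, 3.62 and 3.44.

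Lists that bear on the medium, which held insulin and transferrin in place of most serum, were read as well. Of 15 genes of iron handling 2 rose, 7 fell and 6 did not pass (median difference -0.14), and 4 rose and 7 fell without that P19 array. Tfrc, the transferrin receptor, read 9.46, 9.49 and 9.73 on the control arrays and 11.49, 11.48 and 11.56 on the MyoD arrays, a rise of 1.95, and the heavy ferritin chain Fth1 differed by -0.13 (adjusted p = 0.371). Of 21 genes that answer to insulin and FoxO factors 2 rose, 2 fell and 17 did not pass (median difference -0.12), and 4 rose and 6 fell without the P19 array that stood apart. With all arrays the shares were 9.52% each way, below the 10.8% and 14.5% over all genes. Without that array 18.1% of all genes rose and 22.5% fell. Bcl6 rose by 2.30, and Pik3ip1, an inhibitor of PI3 kinase, fell by 2.14. Of 18 genes of cholesterol synthesis 2 rose, 13 fell and 3 did not pass (median difference -0.82); Sc5d, Sqle and Ebp fell by 1.50, 1.11 and 1.08, and Srebf2, their main transcription factor, rose by 0.57, a call lost against the batch 2 controls. Of 19 genes of fatty acid synthesis and storage 3 rose, 11 fell and 5 did not pass (median difference -0.44), with Elovl6 and Plin2 falling by 1.38 and 1.55 and the fatty acid transporter Cd36 rising by 2.01. The part of the medium in these values was not tested.

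The signalling lists are read beside the shares over all genes, of which 10.8% rose and 14.5% fell. In the Notch list 20% rose and 8% fell, in the Wnt list 6.45% and 25.8%. In the TGF-beta and BMP list 13.3% rose and 33.3% fell. For the serum, SRF and YAP responsive genes the shares were 12.9% and 22.6%, for the unfolded protein response 9.09% and 18.2%. The called Notch genes included ligands, receptors and targets. Dll1, a ligand, read 5.96, 6.14 and 6.04 on the control arrays and 10.34, 10.29 and 10.33 on the MyoD arrays, a rise of 4.27 (adjusted p = 2.06e-14), and the receptors Notch1 and Notch3 rose by 3.02 and 1.23 while Notch2 fell by 0.67. The target Hey1 rose by 0.81, while the targets Hes1, Heyl and Hes5 differed by 0.11, 0.20 and 0.04 (adjusted p = 0.795, 0.681 and 0.932), and Hes1 was called lower, at -0.73, against the batch 2 controls. Of 25 measured, 5 rose, 2 fell and 18 did not pass (median difference 0.06). In the Wnt list 2 rose, 8 fell and 21 did not pass (median difference -0.14) of 31. The secreted inhibitors Dkk2, Dkk3, Sfrp2 and Sfrp1 fell, with differences of -2.94, -2.33, -2.04 and -1.99, and the ligand Wnt5a fell by 1.99. Axin2, a common Wnt target, rose by 1.42. In the TGF-beta and BMP list 4 rose, 10 fell and 16 did not pass (median difference -0.13) of 30. The co-receptor Tgfbr3, the BMP antagonist Grem1 and the ligand Tgfb1 fell by 3.34, 2.90 and 1.57. Of 31 serum, SRF and YAP responsive genes 4 rose, 7 fell and 20 did not pass (median difference -0.20), and the immediate early genes Fos, Egr1 and Jun differed by -0.23, 0.18 and -0.08 (adjusted p = 0.763, 0.657 and 0.918). Of 22 genes of the unfolded protein response 2 rose, 4 fell and 16 did not pass (median difference -0.13), and the chaperone Hspa5 differed by -0.16 (adjusted p = 0.697).

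**Figure D4:**
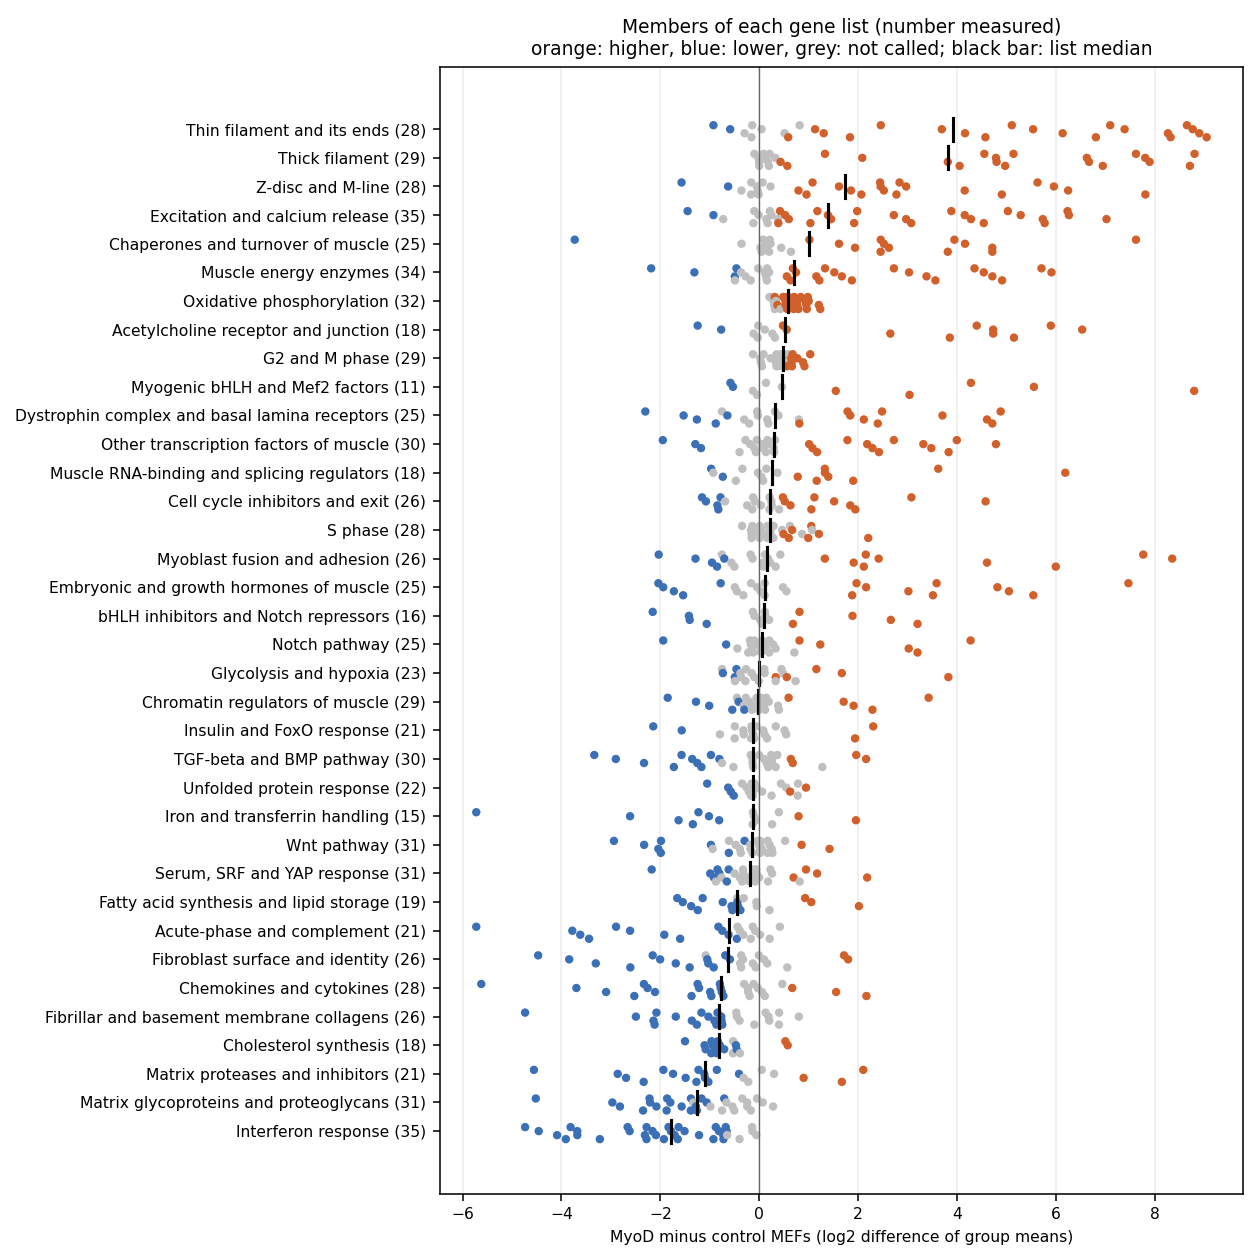
Difference between MyoD and control MEFs (log2) for every measured member of each list, ordered by the list median (black bar), with called rises in orange, called falls in blue and other members in grey. The sarcomere lists stand at the top with medians of 3.92 and 3.81, and the interferon response list at the bottom with -1.79; several lists near 0 hold large changes in both directions.

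Markers of most other cell types had low signal. Of 23 neuronal markers 2 rose, 1 fell and 20 did not pass (median difference 0.03), with mean levels per array of 5.35 to 5.40 on the control arrays and 5.36 to 5.43 on the MyoD arrays, and all 23 had both group means below 7.03. Tubb3, Dcx and Syn1 differed by 0.37, 0.25 and -0.19 (adjusted p = 0.478, 0.836 and 0.594). Of 18 cardiac markers 2 rose, 1 fell and 15 did not pass (median difference 0.02), with mean levels of 5.00 to 5.03 on the control arrays and 5.26 to 5.35 on the MyoD arrays. The cardiac factor Nkx2-5 and the atrial peptide Nppa differed by -0.01 and -0.04 (adjusted p = 0.995 and 0.954), and Smpx, of heart and skeletal muscle, rose by 4.92. Of 14 markers of smooth muscle and myofibroblasts 5 rose, 1 fell and 8 did not pass (median difference 0.32), with mean levels of 7.48 to 7.51 on the control arrays and 8.08 to 8.12 on the MyoD arrays, and with Smtn rising by 2.22 and Tagln and Cnn1 at -0.32 and -0.08 (adjusted p = 0.89 and 0.962). None of the 9 adipocyte, 11 epithelial or 11 pluripotency markers was called. Of the endothelial markers 0 rose and 1 fell of 11, of the macrophage and blood markers 2 rose and 2 fell of 12, and of the cartilage and bone markers 1 rose and 1 fell of 12.

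The MEFs labelled NeuroD2 were infected in the same way but are not stated to have been moved to differentiation medium, and they were compared with the untransduced MEFs of their own batch. Their most intense Neurod2 probe set differed from those controls by 0.21 (adjusted p = 0.664). Where it lies relative to the sequence carried by the virus is unknown here, so this reading does not check the label. Of the 823 genes at least 2-fold higher with MyoD, 115 (14.0%) were at least 2-fold higher in them (24.8% of their 463, which were 2.54% of all genes). Of the 1081 at least 2-fold lower, 220 (20.4%) were lower in them (50.8% of their 433, 2.38% of all genes). Genes at least 2-fold changed the opposite way numbered 25 and 57.

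Several of the named changes occurred in both. Igfbp5 read 13.81, 13.82 and 13.73 in the MEFs labelled NeuroD2 and 6.34, 5.78 and 5.48 in their controls, a difference of 7.92 (adjusted p = 2.31e-12), where MyoD gave 7.46; the 2 effects differed by -0.45 (adjusted p = 0.709). Mest differed by 6.48 (adjusted p = 5.76e-16) and Igf1 by 3.64 (adjusted p = 1.82e-13) in the MEFs labelled NeuroD2. Among the falls, Cxcl5 differed there by -5.97 (adjusted p = 2.93e-18), Lcn2 by -3.96 (adjusted p = 5.03e-13) and Cd34 by -3.68 (adjusted p = 1.36e-15). Mmp3 read 4.90, 4.67 and 4.38 in the MEFs labelled NeuroD2 and 12.90, 12.74 and 12.58 in their controls, a difference of -8.09 against -4.56 with MyoD, and the effects differed by 3.54 (adjusted p = 2.85e-11). Control MEFs of batch 1 lay below those of batch 2 for Mmp3, Lcn2 and Cxcl5, by 1.83, 1.04 and 1.01.

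For other genes the 2 effects differed, by the test of the difference itself. Across all genes the MyoD effect was higher for 1516 (8.33%) and lower for 1911 (10.5%). For Tnnc2, Tnni1, Actc1 and Mylpf the MyoD effect was higher by 8.98, 8.96, 8.87 and 8.69. It was lower by the most for Serping1 (the C1 inhibitor), Fat4 (a protocadherin), Dner (a Notch ligand) and Plscr2 (a scramblase), at -5.66, -5.62, -5.31 and -5.03 (adjusted p = 1.41e-11, 4.46e-07, 3e-10 and 9.73e-16). Serping1, Fat4 and Plscr2 fell with MyoD, with differences of -1.60, -3.68 and -3.51, and rose by 4.06, 1.94 and 1.52 in the MEFs labelled NeuroD2. Dner rose in both, by 1.98 with MyoD and by 7.29 there. Of the 35 interferon response genes the MyoD effect was lower for 26 and higher for 0, and of 26 collagen genes lower for 16 and higher for 0. Pdgfra, Tgfbi and Oasl2 differed from their controls by -0.33 (adjusted p = 0.191), -0.39 (adjusted p = 0.0781) and -0.36 (adjusted p = 0.0922) in the MEFs labelled NeuroD2, and the MyoD effects were lower by 4.14, 4.13 and 4.38 (adjusted p = 2.92e-12, 1.22e-12 and 2.12e-13). Each factor lies in a batch of its own, so factor, batch and medium cannot be told apart in these differences.

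**Figure D5:**
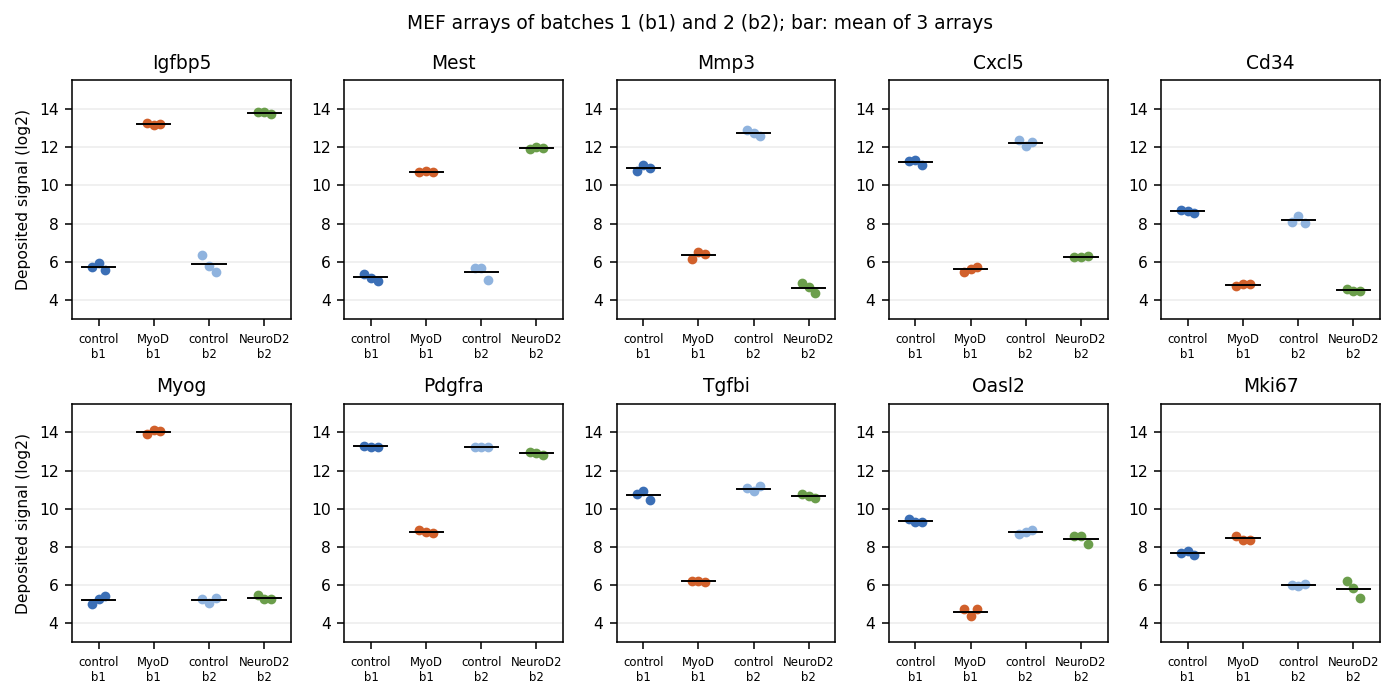
Signal (log2) of 10 genes on the 12 MEF arrays, 1 point per array with a bar at the mean of 3, for untransduced and MyoD MEFs of batch 1 (b1) and untransduced MEFs and MEFs labelled NeuroD2 of batch 2 (b2). Igfbp5, Mest, Mmp3, Cxcl5 and Cd34 move the same way in both transduced groups, Myog, Pdgfra, Tgfbi and Oasl2 mainly with MyoD, and Mki67 is higher in the batch 1 than in the batch 2 controls.

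In P19 cells transduced with MyoD, which are not stated to have been moved to differentiation medium, 181 genes (0.995%) were at least 2-fold higher, of which 84 (46.4%) were also at least 2-fold higher in MEFs, 10.2% of the 823. At least 2-fold lower were 27 (0.148%), of which 5 (18.5%) were shared, 0.463% of the 1081. The P19 control means include the array that stood apart, and these P19 counts were not made without it. Myod1 read 9.74, 9.58 and 9.66 in the MyoD P19 cells, below the 12.86, 12.67 and 12.67 of MyoD MEFs. Muscle genes that rose in both included Myog and Myh3, with 2.54 (adjusted p = 1.25e-11) and 3.06 (adjusted p = 6.24e-11) in P19 cells. Others did not pass there: Mymk differed by 0.34 (adjusted p = 0.174), Acta1 by 0.54 (adjusted p = 0.258), Chrng by 0.30 (adjusted p = 0.249) and Cdkn1c by 0.08 (adjusted p = 0.715). Tested as a difference, the effect in MEFs was higher than in P19 cells for 1163 genes (6.39%) and lower for 2677 (14.7%). Without the P19 array that stood apart, these counts were 2495 and 3064. With all arrays, the effect in MEFs exceeded that in P19 cells by 8.00 for Mymk and 6.23 for Chrng (adjusted p = 1.61e-15 and 3.59e-13). Klhl41 rose in P19 cells by 4.75 (adjusted p = 1.78e-16) against 6.13 in MEFs. Interferon response genes had a median difference of -0.09 in P19 cells. Some of them were already low in the P19 controls: Oasl2 read 4.56, 4.69 and 4.48 there, and Gbp2 4.46, 4.79 and 4.53. For such genes a fall could hardly be read in P19 cells.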

How the data were processed

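RNA of all 24 samples was labelled by Affymetrix's One-Cycle method and hybridised to mouse arrays with 45101 probe sets, per the labels' protocols. The authors deposited log2 signals; the submitters' processing notes name limma and no other tool, and how the arrays were normalized is unknown here. Signal on arrays has no read depth, so precision rests on how many arrays there are.

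The 34945 probe sets with 1 gene symbol in the platform annotation were kept (64 control probe sets, 9160 without a symbol and 932 with several were left out), and the one with the highest mean over all arrays stood for each of 18193 genes. Group means of 8 groups were fitted (R 4.3.3, limma 3.58.1, all 24 arrays, leaving 16 residual degrees of freedom), two-sided, adjusted by Benjamini-Hochberg over all genes and called at an adjusted p under 0.05. The script was tested on simulated data. Alternatives were other normalizations, filters, probe set rules, samples, controls, array weights, a replicate block and each array left out.

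The gene lists (46, with 969 measured genes) and the members named were chosen with earlier results of these data known. The naming rule took Myod1, Myf5 and the 4 muscle markers; the 20 largest called rises and falls with no overlap between groups and a mean above the median of all genes, clone names left out; from each list up to 4 called genes in each direction and the 3 brightest that were not called; all members of the list of isoform pairs; and the 4 largest differences each way from P19 cells and from the MEFs labelled NeuroD2. A further 72 list members were named for their role after their values were seen. Promoter sequences came from RefSeq, GRCm38.p6; the table used here pairs no window with Mymk, Mymx, Tnnt3 or Srl.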

Additional observations from a re-analysis of the deposited data

Results flagged for a closer look

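The effect of MyoD in MEFs was tested against its effect in P19 cells of the same batch, as the difference of the 2 effects in the limma fit. It was higher in MEFs for 1163 genes (6.39%) and lower for 2677 (14.7%). Leaving out P19 control replicate 2 of batch 1, the array that stood apart, gave 2495 and 3064 genes, and leaving out P19 control replicate 3 gave 2022 and 4047. MEFs and P19 cells also differed in the medium given and in the Myod1 signal reached. On the same probe set Myod1 read 9.74, 9.58 and 9.66 in MyoD P19 cells, against 12.86, 12.67 and 12.67 in MyoD MEFs. Cell type, medium and Myod1 level therefore cannot be told apart.

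By the rule for naming genes, the largest differences on the higher side were Tnnt3 at 8.31 (8.32 in MEFs, 0.01 in P19 cells), Mymk at 8.00 (8.35 in MEFs, 0.34 in P19 cells), Acta1 at 7.72 (8.26 in MEFs, 0.54 in P19 cells) and Tmem182 at 7.55 (7.83 in MEFs, 0.28 in P19 cells). On the lower side they were Cxcl5 at -5.88 (-5.62 in MEFs, 0.26 in P19 cells), Lcn2 at -5.37 (-5.72 in MEFs, -0.35 in P19 cells), Col11a1 at -4.89 (-4.74 in MEFs, 0.16 in P19 cells) and Saa3 at -4.75 (-3.62 in MEFs, 1.13 in P19 cells). Adjusted p-values of the limma fit lay between 2.45e-19 for Tmem182 and 3.36e-10 for Col11a1. In P19 controls the 4 genes of the lower side had means of 4.36 (Cxcl5), 4.51 (Lcn2), 5.52 (Col11a1) and 6.41 (Saa3).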

How the results depend on the processing

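Of the 311 tracked genes called in MyoD against control MEFs, 270 kept direction and call under every alternative that tested them. Of 158 named genes that were not called, 45 gained a call in the same direction without P19 control replicate 2 of batch 1. With only the arrays compared 86 did, and with array weights 85. For such genes the lack of a call depended on which arrays set the spread. Counts of calls moved by over 1.5 times in these settings. With only the arrays compared, 4229 genes rose and 4890 fell, the MyoD effect was lower in MEFs than in P19 cells for 1658 genes, and it was higher than the effect in MEFs labelled NeuroD2 for 3574 genes and lower for 4297. With array weights the corresponding counts were 4416 and 5097, 3856 higher and 4243 lower against P19 cells, and 4010 and 4509 against the MEFs labelled NeuroD2. With quantile normalization of the deposited values of these genes, the MyoD effect was higher in MEFs than in P19 cells for 2038 genes. Leaving out single arrays gave 1610 to 3302 rises and 2146 to 4087 falls (810 to 827 and 1037 to 1093 of at least 2-fold), 953 to 2495 genes higher and 2177 to 4047 lower against P19 cells, and 1267 to 2961 higher and 1619 to 3537 lower against the MEFs labelled NeuroD2. The upper ends came from leaving out P19 control replicate 2 of batch 1, except 4047, which came from P19 control replicate 3; leaving out 1 of the 6 arrays compared gave 1610 to 1662 rises and 2146 to 2279 falls.

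Directions turned for few genes, and the cause was not tested. On the mean of all probe sets, Tpm3 was at 0.94, Ackr4 at 0.60 and Myh1 at 3.86, and without probe sets ending in _x_at or _s_at Dmp1 was at -0.091. Against the batch 2 controls, Myf5 was at 0.048, Hes1 at -0.73, Mtm1 at 0.34, Agrn at 0.033, Irs1 at 0.54 and Scg2 at -0.038. The replicate numbers of the labels did not pair the arrays: deviations of same-numbered control and MyoD arrays correlated at 0.0457, 0.0065 and 0.0765. With the replicate number as a block, 1919 genes rose and 2573 fell. The number of arrays, 3 a group, limits the precision.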
